A study of Mus musculus with 6 samples.

Results

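The 10 genes followed here belong to the NRF2 antioxidant programme and were measured by bulk RNA-seq of mouse bone marrow: the transcription factor gene Nfe2l2 and 9 genes known as its targets, Nqo1, Gclm, Gclc, Slc7a11, Txnrd1, Srxn1, Gsr, Prdx1 and Me1. They were chosen by symbol, with earlier results of these data known, as 10 of the 45706 gene identifiers counted. All 10 passed the filter on low counts. In 2 libraries, replicates 1 and 2 of control medium, the marrow had been kept in control medium, per the labels. In the other 4 it had been cultured in medium conditioned by cells of a VpR line, which are mouse clear cell renal cell carcinoma (ccRCC) cells: VpR83, VpR99, VpR126 and VpR2020, with 1 library for each line. The column headers of 3 lines carry further tags that no label explains (Ctrl for VpR83, T1 for VpR99 and LT2 for VpR126), so whether these media also differ in a treatment or subline of the cells is not known. The comparator in the series' design text is marrow taken fresh, so time in culture and medium cannot be told apart. The sources used here do not give mouse strain, age, genotype, culture time or the number of animals. Whether the libraries stem from different animals or cultures is not stated, and a p-value then measures only how far these libraries spread, which may be technical. In the conditioned group this spread also holds differences between the 4 media, which the test treats as replicates of 1 condition.

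NRF2, the protein of Nfe2l2, is held low by KEAP1, which brings it to a ubiquitin ligase. When oxidants or electrophiles modify KEAP1, NRF2 builds up, pairs with small MAF proteins and binds antioxidant response elements near its targets. These targets supply glutathione, run the thioredoxin system, provide NADPH and remove quinones and haem. Phagocytes use them to withstand the oxidants they make. NRF2 is controlled largely at the protein level, so the level of its transcript is not a measure of its activity.

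Promoter sequences were read around the starts of the genes, because the members share a regulator whose element has a known core. RefSeq promoter windows (GRCm38.p6, 250 bases before to 50 after a start) were found for 8 of the 10 members, in 11 windows, and not for Gclc and Gsr. The core TGANNNNGC, searched on both strands, lay in a window of 7 of the 8 members (Nqo1 being the exception), or in 8 of their 11 windows, beside 45.0% of all genes in the table and 41.3% of all 32851 windows. The stricter TGACNNNGC, whose matches are all matches of the first as well, lay in windows of 6 members (Nfe2l2, Gclm, Txnrd1, Srxn1, Prdx1 and Me1) (6 of 11 windows), in 14.0% of all genes and in 12.4% of all windows. A form with more fixed letters, TGANTCAGC, was added after the sequences had been seen. Its matches are also matches of the first core, but its match in Srxn1 (TGAGTCAGC) is not one of the stricter core. This form lay in windows of 3 members (Srxn1, Prdx1 and Me1) (3 of 11 windows), in 1.37% of all genes and in 1.19% of all windows. The stretches below hold the form TGANTCAGC in Srxn1, Prdx1 and Me1 and the stricter core in Txnrd1, Nfe2l2 and Gclm. They run 5′ to 3′ on the strand of the gene, with the match in capitals. A match whose capitals begin with GC is read on the opposite strand.
Srxn1 (chr2:152105449-152105507, plus strand): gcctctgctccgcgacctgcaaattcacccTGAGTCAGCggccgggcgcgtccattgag
Prdx1 (chr4:116685436-116685494, plus strand): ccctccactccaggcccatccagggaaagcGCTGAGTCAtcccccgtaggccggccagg
Me1 (chr9:86695912-86695950, minus strand): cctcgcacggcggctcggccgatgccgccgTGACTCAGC
Txnrd1 (chr10:82859084-82859142, plus strand): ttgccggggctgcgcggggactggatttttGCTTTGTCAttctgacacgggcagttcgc
Nfe2l2 (chr2:75704875-75704913, minus strand): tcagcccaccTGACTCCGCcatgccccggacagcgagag
Gclm (chr3:122245393-122245451, plus strand): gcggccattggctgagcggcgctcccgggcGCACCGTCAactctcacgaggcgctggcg
In Srxn1, Prdx1 and Me1 the match of TGANTCAGC began 45, 133 and 6 bases before the RefSeq gene start around which its window was placed. That start is not the gene boundary of GENCODE M21 printed with each gene below, by which the match of Me1 lies inside the gene. A match is a description of the letters and was not tied to binding here.

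Conditioned medium split the 10 genes. Transcripts of the peroxide-reducing and thioredoxin arm were higher (Prdx1, Srxn1 and Txnrd1), as were Nfe2l2 itself and the NADPH-producing enzyme gene Me1. Glutathione reductase (Gsr) and the catalytic subunit of glutathione synthesis (Gclc) were lower. The gene used most often as an NRF2 readout, Nqo1, had the same mean level in both groups, and Gclm and Slc7a11 did not pass the test. Of the 10 members, 5 were called higher, 2 lower and 3 were not called by edgeR's quasi-likelihood test at an adjusted p below 0.05, while 22.5% of the 15141 genes tested were called higher and 19.7% lower (3409 and 2982 genes, or 2625 and 4168 with library totals as the scaling). Without control replicate 1 these counts were 1282 and 918, and without replicate 2 they were 1298 and 990. The median log2 fold change was 1.65 over the members and -0.01 over all genes tested. All 4 conditioned libraries lay above both controls for 7 members and below both for 2, and for 32.0% and 33.3% of all genes tested. Me1 passed the low-count filter through its conditioned libraries only, so its place among the higher genes is partly set by that filter. The direction of each called member was the same in all 13 alternative analyses, whereas without control replicate 1 only 1 member was called lower.

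**Figure D1:**
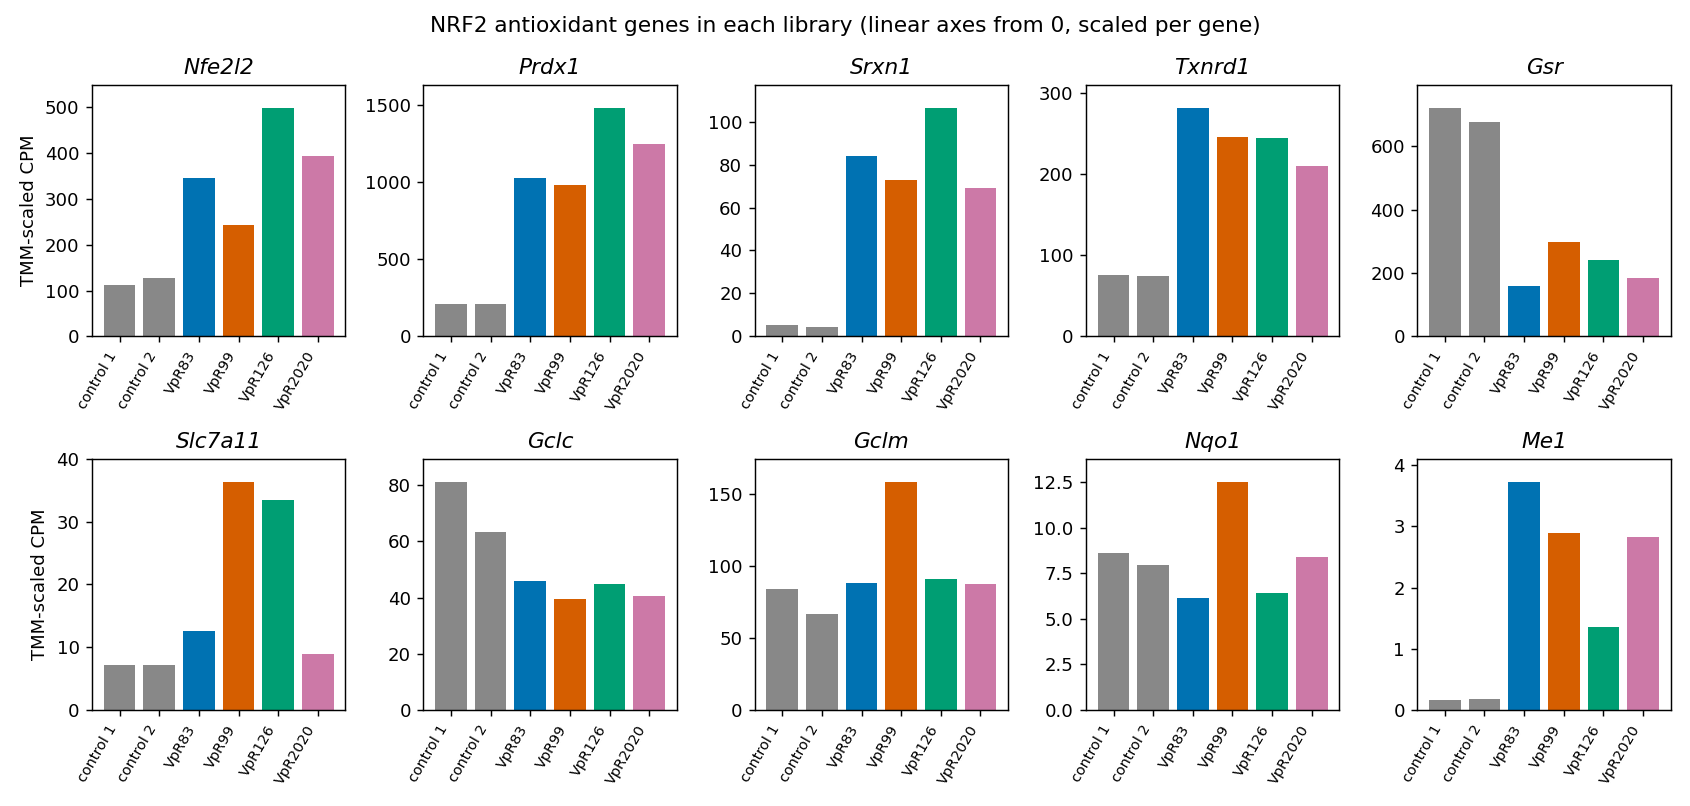
Read counts scaled to library size by TMM (CPM, linear axes from 0 and scaled per gene) of the 10 genes in the 2 control libraries (grey) and the 4 conditioned libraries (one colour per line), one bar per library. Prdx1, Srxn1, Txnrd1, Nfe2l2 and Me1 are higher in all 4 conditioned libraries, Gsr and Gclc are lower in all 4, and Slc7a11 ranges from 8.85 to 36.4 CPM between lines.

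Cell type markers moved with the groups, with median log2 fold changes of 4.62 over the macrophage and -3.22 over the neutrophil markers. Of 12 macrophage markers 11 were called higher, and their summed level went from 503.5 and 532 CPM in the controls to between 6303 and 16250.0 in the conditioned libraries. The exception, Cd163, lay above the controls (23.0 and 21.85 CPM) under VpR126 medium only (78.95 CPM). Of 12 neutrophil markers 8 were called lower, with sums of 84740.0 and 92270.0 CPM in the controls and 3502 to 18820.0 in the conditioned libraries. Elane, Prtn3, Ctsg and Mmp8 were not called. Under VpR99 medium Prtn3 (658 CPM) lay between the controls (673 and 605 CPM). Ctsg (305 against 274 and 218 CPM) and Mmp8 (2287 against 942 and 1018 CPM) lay above both there, as did Mmp8 under VpR2020 medium (1298 CPM). All 12 erythroid markers were called lower, with sums of 3273 and 6684 against 1.61 to 9.67 CPM, and Slc4a1, Car1 and Rhag had 0 counts in every conditioned library. Of 11 B cell and 10 T and NK cell markers 8 and 10 were called lower. Markers of epithelial and renal tumour cells, checked for carried-over tumour cells, summed to 24.95 and 26.1 CPM in the controls and 9.80 to 24.4 in the conditioned libraries, with Krt8 at 0 counts in the latter and Krt19 at 0 in all 6. Within that list Car9, a hypoxia-regulated carbonic anhydrase gene typical of this tumour, had 3.43 and 4.18 CPM in the controls and 5.75 to 7.76 in the conditioned libraries and was called higher (edgeR adjusted p = 0.046), and Cdh1 under VpR99 medium (17.3 CPM) lay above both controls (16.7 and 13.3 CPM). Thus the controls carried the neutrophil, erythroid and B cell transcripts of marrow, and the conditioned libraries nearly lacked the erythroid ones. In these bulk libraries fewer cells of a type and less RNA per cell cannot be told apart, and the part of cell composition in any result below was not tested. Total counts ran from 18629708 to 28055913 in 5 libraries, and VpR99 had 129120559.

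The regulator came first. Nfe2l2 (chromosome 2, 75675513 to 75704641, GRCm38) had 111 and 127 CPM in control replicates 1 and 2. In the conditioned libraries it had 345 CPM under VpR83 medium, 243 under VpR99, 499 under VpR126 and 393 under VpR2020. Every conditioned library was higher than both controls, and the lowest, VpR99, had less than the other lines. The mean was 119 ± 11.2 CPM (SD, n = 2) in the controls and 370.1 ± 106 CPM (SD, n = 4) in conditioned medium, higher by 1.63 ± 0.31 log2 units (SE, edgeR adjusted p = 0.0076). Nfe2l2 was not called without control replicate 1 or 2 (adjusted p = 0.076 and 0.058, range over the alternatives 6.2e-06 to 0.076), fits in which the spread of the lone control was taken from the conditioned group.

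Both genes of the peroxide-reducing pair were higher under every medium. Srxn1 encodes sulfiredoxin, which returns overoxidised peroxiredoxins to their active form (chromosome 2, 152105516 to 152111376). It had 5.13 and 4.46 CPM in the controls, and 83.8, 72.9, 106.5 and 69.2 CPM under VpR83, VpR99, VpR126 and VpR2020 medium. The groups were far apart, and the lines differed among themselves by 1.54-fold only. Srxn1 rose from 4.80 ± 0.47 to 83.1 ± 16.8 CPM, by 17.3-fold, or 4.11 ± 0.26 on the log2 scale (edgeR adjusted p = 0.00034), and 2.13% of the genes tested had a larger rise. Prdx1 encodes peroxiredoxin 1, an abundant cytosolic enzyme that reduces hydrogen peroxide (chromosome 4, 116685544 to 116700822). Its levels were 208 and 211 CPM in the controls against 1026 (VpR83), 984 (VpR99), 1482 (VpR126) and 1249 CPM (VpR2020). No conditioned library came near the controls, which differed by 1.02-fold, and the lines spanned 1.51-fold. The mean of Prdx1 went from 209 ± 2.37 to 1185 ± 229.6 CPM, or by 2.501 ± 0.25 on the log2 scale (edgeR adjusted p = 0.0011).

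Txnrd1 encodes the cytosolic selenoenzyme that recharges thioredoxin with NADPH (chromosome 10, 82833951 to 82897712). The controls had 75.0 and 74.2 CPM, and the conditioned libraries 281.5 (VpR83), 245.5 (VpR99), 244.9 (VpR126) and 209.7 CPM (VpR2020). The controls were nearly equal and the lines close together, within 1.34-fold. Mean Txnrd1 was 74.6 ± 0.56 CPM in the controls and 245 ± 29.3 CPM in conditioned medium, higher by 1.72 ± 0.17 log2 units (edgeR adjusted p = 0.0011). Me1, the cytosolic malic enzyme, makes NADPH from malate (chromosome 9, 86581371 to 86695953). It was barely present in the controls, with 5 and 4 counts (0.167 and 0.188 CPM), and had 102, 357, 32 and 51 counts under VpR83, VpR99, VpR126 and VpR2020 medium (3.73, 2.89, 1.35 and 2.82 CPM). All conditioned libraries were higher, VpR126 least so. The log2 fold change was 3.91 ± 0.59 (edgeR adjusted p = 0.0037). Of the 50-base stretches in the annotated Me1 transcripts, 22.9% occur in transcripts of another gene, nearly all of these in Gm7049. Gm7049 had 0 counts, so no reads were counted for it. Reads of Me1 may still have been lost, and single values of Me1 are uncertain. The like share was 8.29% for Prdx1, 3.92% for Gclm and 0.618% for Slc7a11, and 0 for the other 6 members. Most of the share of Gclm (3.24%) was with Ppia, which had 185944 counts over all libraries against 29641 for Gclm. Reads of Gclm may thus have been lost, or gained from Ppia.

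The 2 disulfide reductases of the list moved in opposite directions. Gsr, glutathione reductase, recharges oxidised glutathione with NADPH and is abundant in neutrophils (chromosome 8, 33652523 to 33698163). The controls had 721 and 676 CPM, the highest level among the 10 genes there. Under conditioned medium 158 (VpR83), 299 (VpR99), 242 (VpR126) and 185 CPM (VpR2020) were measured. Every conditioned library was lower than both controls, with VpR99 closest to them. Mean Gsr was 698.5 ± 32.3 CPM in the controls and 221 ± 62.9 CPM in conditioned medium, with a fitted difference of -1.66 ± 0.26 log2 units (edgeR adjusted p = 0.0043). The summed neutrophil markers were also highest in VpR99 among the conditioned libraries (18820.0 CPM, against 3502, 7950.0 and 5981 under VpR83, VpR126 and VpR2020 medium), and their part in the fall of Gsr was not tested. Per length, the ratio of Txnrd1 to Gsr was 0.0404 and 0.0427 in the controls and 0.693, 0.319, 0.393 and 0.441 under VpR83, VpR99, VpR126 and VpR2020 medium.

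Glutathione synthesis did not rise as a whole. Glutamate-cysteine ligase makes the first step, with Gclc as its catalytic and Gclm as its modifier subunit, and Slc7a11 (xCT) imports the cystine it needs. Gclc (chromosome 9, 77754535 to 77794485) had 81.3 and 63.3 CPM in the controls and 46.1, 39.6, 44.8 and 40.5 CPM under VpR83, VpR99, VpR126 and VpR2020 medium. The lines were nearly level, within 1.16-fold, while the controls differed by 1.28-fold. Mean Gclc was 72.3 ± 12.8 CPM in the controls and 42.7 ± 3.15 CPM in conditioned medium, with a fitted difference of -0.76 ± 0.15 log2 units (edgeR adjusted p = 0.0096). Without control replicate 1 it was not called (-0.57, adjusted p = 0.11, range over the alternatives 0.00032 to 0.11).

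Gclm (chromosome 3, 122245557 to 122270732) had 83.8 and 67.0 CPM in the controls. Under VpR83, VpR126 and VpR2020 medium it had 88.2, 90.8 and 87.3 CPM, and under VpR99 medium 158.6 CPM. One line was thus well above the rest, and the other 3 were just above control replicate 1. The log2 fold change of 0.50 ± 0.30 was not called (edgeR adjusted p = 0.22). Exons of Gclm overlap those of the antisense gene Gm17494 by 296 bases and those of the pseudogene Gm6061 by 244, and whether the counting used strand is not stated in the sources used here. The per-length ratio of Gclm to Gclc was 0.617 and 0.634 in the controls and 1.15 (VpR83), 2.40 (VpR99), 1.21 (VpR126) and 1.29 (VpR2020) in conditioned medium.

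Slc7a11 (chromosome 3, 49892526 to 50443614) divided the lines more than any other member. It had 7.13 and 7.19 CPM in the controls, and 36.4 and 33.4 CPM under VpR99 and VpR126 medium. Under VpR83 and VpR2020 medium it had 12.5 and 8.85 CPM. All 4 values lay above the controls, VpR2020 only by a little, and the lines spanned 4.09-fold. The mean of 22.8 ± 14.1 CPM stood against 7.16 ± 0.041 CPM in the controls, with a log2 fold change of 1.67 ± 0.65 that missed the threshold (edgeR adjusted p = 0.078). It was called by DESeq2 and without VpR2020 (adjusted p = 0.015 and 0.035, range over the alternatives 0.015 to 0.26). Its partner Slc3a2, the heavy chain of the transporter, had 136 and 84.1 CPM in the controls and 205 to 265 CPM in conditioned medium, and was called higher (log2 fold change 1.11 ± 0.24, edgeR adjusted p = 0.013). Without control replicate 2 this was not called (0.82, adjusted p = 0.089, range over the alternatives 0.00027 to 0.089).

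Nqo1, a quinone reductase (chromosome 8, 107388225 to 107403206), had 8.63 and 7.94 CPM in the controls. The lines lay on both sides of them, at 6.15 (VpR83), 6.42 (VpR126), 8.41 (VpR2020) and 12.5 CPM (VpR99). The groups overlapped, and the means of 8.29 ± 0.49 and 8.37 ± 2.94 CPM differed by 0.02 ± 0.34 log2 units (edgeR adjusted p = 0.97). The sign of this difference flipped with the scaling and with the libraries used, and no alternative called it.

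**Figure D2:**
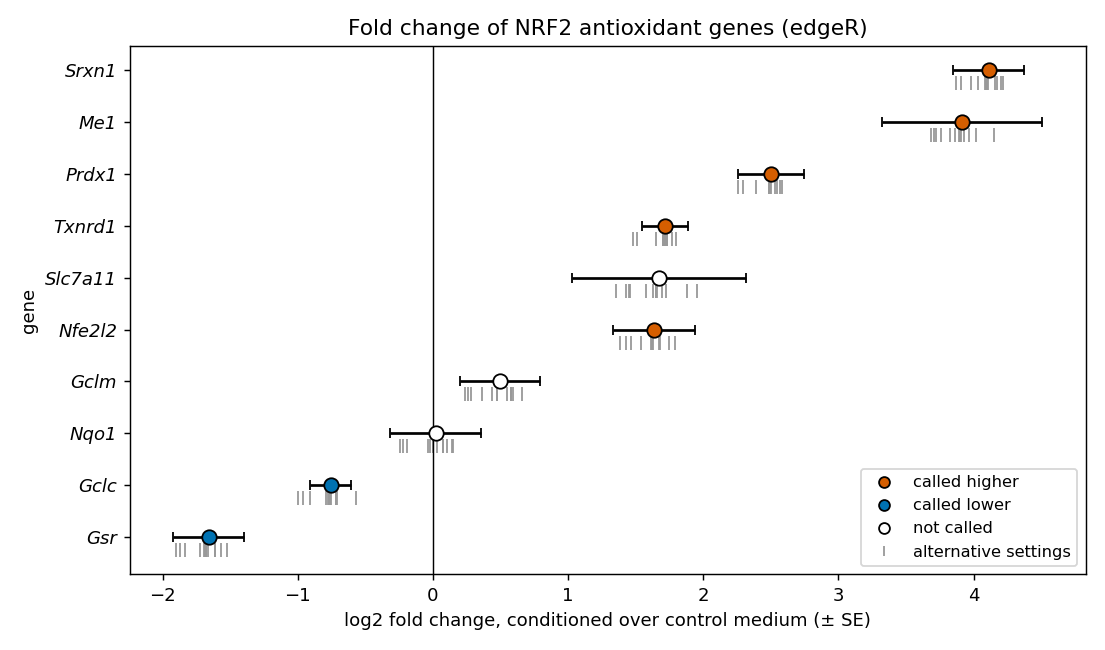
Log2 fold change of conditioned over control medium for each of the 10 genes (x axis, circles with SE from edgeR, coloured by call) with the values of the alternative analyses as grey ticks. Srxn1 (4.11) and Me1 (3.91) are at the top, Gclc (-0.76) and Gsr (-1.66) at the bottom, and the ticks of Nqo1 lie on both sides of 0.

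Line by line, no medium raised all the genes, and the lines did not keep 1 order. With 1 library per line there is no replicate check of a line, so these are descriptions. The median log2 ratio of the 10 genes to the controls was 1.17 under VpR83, 1.40 under VpR99, 1.89 under VpR126 and 0.90 under VpR2020 medium, against -0.05, -0.01, -0.04 and -0.06 over all genes tested. VpR126 medium had the highest Nfe2l2, Prdx1 and Srxn1. VpR83 medium had the highest Txnrd1, Me1 and Gclc. VpR99 medium had the highest Nqo1, Gclm, Slc7a11 and Gsr but the lowest Nfe2l2, Prdx1 and Gclc. VpR2020 medium was the highest for 0 genes and the lowest for 4 (Gclm, Slc7a11, Txnrd1 and Srxn1). The order of the lines for Nfe2l2 (VpR126, VpR2020, VpR83, VpR99) recurred in Prdx1, while in Nqo1 and Gclm VpR99 led. The summed macrophage markers had the same order as Nfe2l2, at 16250.0, 13000.0, 10340.0 and 6303 CPM. Single markers such as Mrc1 and Cd68 were ordered otherwise. The median range over the 4 lines was 0.89 log2 units for the members and 0.78 for all genes tested, beside a median gap between the 2 controls of 0.13 and 0.18. VpR99, the deepest library, also had the lowest summed macrophage markers (6303 CPM) and the highest neutrophil markers of the 4, and their part in these differences was not tested.

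**Figure D3:**
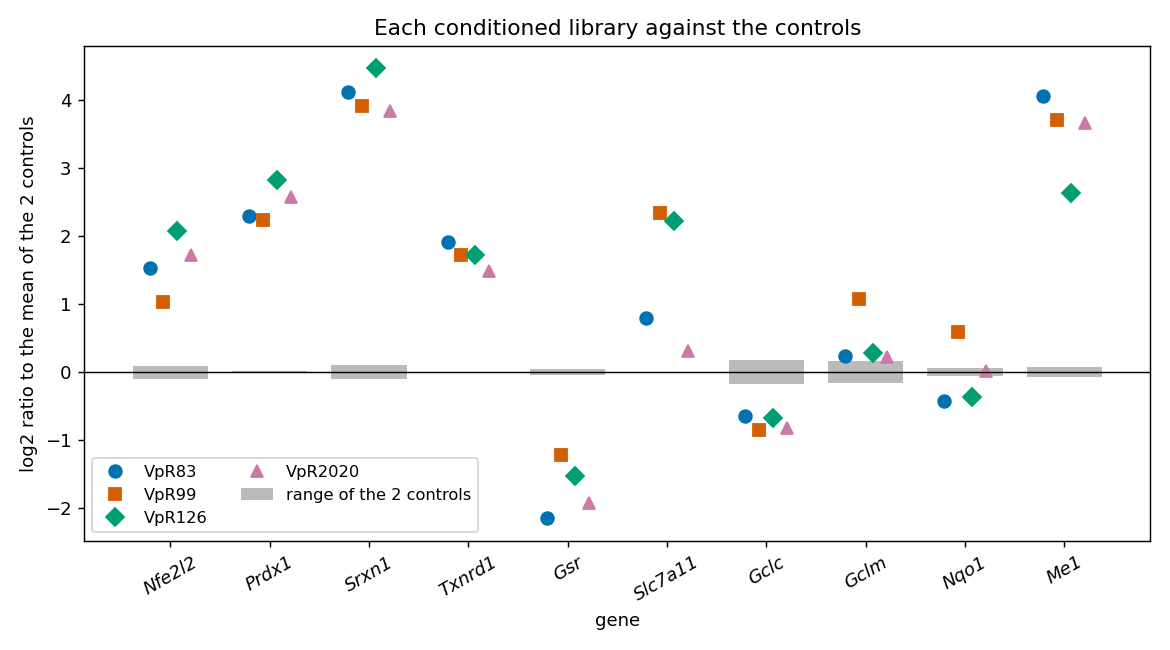
Log2 ratio of each conditioned library to the mean of the 2 controls for the 10 genes (one symbol per line), with the range of the controls as a grey band around 0. Srxn1, Prdx1 and Txnrd1 keep the 4 lines close together, whereas Slc7a11 spreads from 0.30 (VpR2020) to 2.34 (VpR99).

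Levels of different genes were compared per length, as FPKM (CPM per kilobase of summed exons). In the controls the order was Gsr (253.6 ± 11.7 FPKM), Prdx1 (68.8 ± 0.78), Nfe2l2 (31.4 ± 2.94), Gclc (19.2 ± 3.39), Gclm (11.98 ± 1.89), Txnrd1 (10.52 ± 0.080), Nqo1 (5.34 ± 0.31), Srxn1 (1.70 ± 0.17), Slc7a11 (0.514 ± 0.0029) and Me1 (0.0461 ± 0.0039). Gclm and Txnrd1 differed by less than the SD of Gclm. In conditioned medium Prdx1 led (389.5 ± 75.4 FPKM), before Nfe2l2 (97.5 ± 28.0), Gsr (80.3 ± 22.8), Txnrd1 (34.6 ± 4.14), Srxn1 (29.5 ± 5.96), Gclm (16.9 ± 5.55), Gclc (11.4 ± 0.84), Nqo1 (5.39 ± 1.89), Slc7a11 (1.64 ± 1.01) and Me1 (0.702 ± 0.257). The ranges of Nfe2l2 and Gsr overlapped there, as did those of Txnrd1 and Srxn1, of Srxn1 and Gclm, and of Slc7a11 and Me1. Me1 was above Slc7a11 under VpR83 (0.970 against 0.899 FPKM) and VpR2020 medium (0.733 against 0.636). Slc7a11 has 13922 bases of annotated exons over all its transcripts, so its level per length may be understated. Srxn1 thus went from far below Txnrd1 to a similar level, and the per-length ratio of Srxn1 to its substrate Prdx1 was 0.0267 and 0.0228 in the controls and 0.0882, 0.0799, 0.0776 and 0.0598 under VpR83, VpR99, VpR126 and VpR2020 medium.

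**Figure D4:**
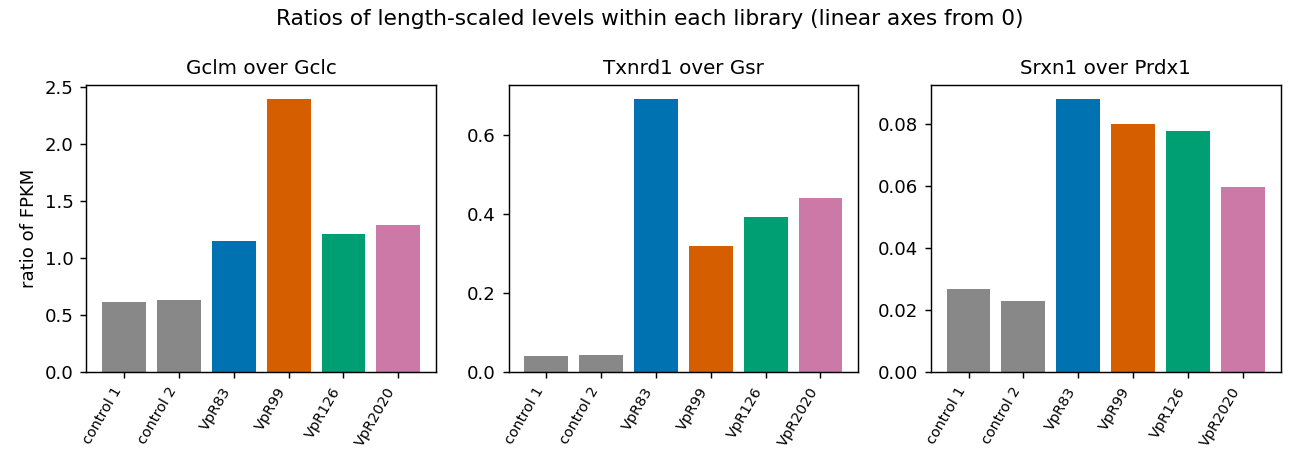
Ratios of FPKM within each library (linear axes from 0, grey bars for the controls, one colour per line) for Gclm over Gclc, Txnrd1 over Gsr and Srxn1 over Prdx1. All 3 ratios are higher in every conditioned library than in both controls, with Gclm over Gclc at 2.40 under VpR99 medium.

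Other genes around NRF2 moved in both directions. Over 7 related lists, 21 of 90 tested genes (23.3%) were called higher and 22 (24.4%) lower, near the 22.5% and 19.7% of all genes tested, with list medians of -0.39 to 1.80, the latter over the 3 tested of the superoxide dismutase and catalase list. Without control replicate 1, 13 were called higher and 7 lower, and without control replicate 2, 12 and 8. Of 14 regulators and partners of NRF2, 5 (35.7%) were called higher, 4 (28.6%) lower and 5 were not called. Keap1, the inhibitor, had 40.5 and 46.4 CPM in the controls and 53.1 to 69.2 in conditioned medium (log2 fold change 0.50 ± 0.16, edgeR adjusted p = 0.046), and kept its call in 5 of 13 alternatives (adjusted p of 0.024 to 0.26). Bach1, a repressor that competes for the same elements, rose from 67.9 ± 5.62 to 202 ± 33.9 CPM (1.57 ± 0.20, adjusted p = 0.0022). Sqstm1, the autophagy receptor that binds KEAP1, rose by 1.33 ± 0.28 (adjusted p = 0.012), though without control replicate 1 or 2 it was not called (adjusted p = 0.064 and 0.099, range 0.00014 to 0.099). The related factor gene Nfe2l1 rose by 1.39 ± 0.19. Nfe2, the founding member of the family and a factor of erythroid cells and megakaryocytes, changed by -2.15 ± 0.44, and Nfe2l3 changed by -2.42 ± 0.48 at under 1 CPM. Nfe2l3 passed the low-count filter through its control libraries only, so its place among the lower genes is partly set by that filter. The call was lost without control replicate 1 or 2 for Nfe2 (adjusted p = 0.053 and 0.071, range 3.0e-05 to 0.071) and without replicate 2 for Nfe2l3 (0.10, range 0.0064 to 0.10).

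In the glutathione list 3 of 13 tested genes (23.1%) were called higher and 2 (15.4%) lower, beside 22.5% and 19.7% of all genes tested, and 8 were not called. Abcc1, an exporter of glutathione conjugates, rose from 33.1 ± 1.96 to 177 ± 25.3 CPM (log2 fold change 2.42 ± 0.20, edgeR adjusted p = 0.00070), and the secreted peroxidase gene Gpx3 from 12.96 ± 1.27 to 198 ± 126 CPM (3.93 ± 0.71). Gpx1, the main cytosolic glutathione peroxidase, changed by -1.18 ± 0.30 and the glutathione-degrading Chac2 by -1.18 ± 0.24. Without control replicate 1 or 2 no call was made of Gpx3 (adjusted p = 0.068 and 0.061, range 4.5e-10 to 0.068), Gpx1 (0.12 and 0.096, range 0.0010 to 0.12) or Chac2 (0.094 and 0.071, range 9.4e-06 to 0.094). Of 13 thioredoxin and peroxiredoxin genes 2 (15.4%) were called higher, 5 (38.5%) lower and 6 not. Prdx2, an abundant peroxiredoxin of red cells, fell from 368 ± 36.7 to 112 ± 7.19 CPM (-1.72 ± 0.14, adjusted p = 0.00065), opposite to Prdx1, beside the near absence of erythroid markers. The mitochondrial reductase gene Txnrd2 changed by -1.27 ± 0.21, opposite to Txnrd1, and was not called without control replicate 1 (adjusted p = 0.0502, range 9.1e-06 to 0.0502). The stress-induced sestrin genes Sesn1 and Sesn2 rose by 2.23 ± 0.48 and 0.57 ± 0.18. Neither was called without control replicate 1 or 2 (adjusted p = 0.087 and 0.090 for Sesn1, range 1.2e-05 to 0.090, and 0.18 and 0.17 for Sesn2, range 0.024 to 0.18), nor Sesn2 under 2 other scalings or without VpR126 or VpR2020. Thioredoxin itself (Txn1) and its inhibitor Txnip had log2 fold changes of -0.38 and 0.63 and were not called (adjusted p = 0.084 and 0.12). Txn1 was called lower by DESeq2 and with upper-quartile or total-count scaling (adjusted p = 0.032, 0.019 and 0.018, range 0.018 to 0.31).

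Among 23 tested detoxification genes 7 (30.4%) were called higher and 5 (21.7%) lower, beside the same 22.5% and 19.7%, and 11 were not called. Hmox1, which encodes the haem-degrading enzyme haem oxygenase 1, had 123 and 120.5 CPM in the controls and 515, 576, 417 and 371 under VpR83, VpR99, VpR126 and VpR2020 medium (log2 fold change 1.95 ± 0.23, edgeR adjusted p = 0.0018). Akr1b8, of the aldo-keto reductase family, had 1 count in each control and 4204 over the conditioned libraries, a ratio of 560.0 with a 95% counting interval of 155 to 4630.0. The glutathione transferase gene Gstm2 rose from 0.342 ± 0.248 to 24.9 ± 11.3 CPM (6.24 ± 0.73, and 5.58 and 7.22 without control replicate 1 and 2), whereas Gstm5 and Gsta4 changed by -2.77 ± 0.40 and -2.70 ± 0.57. Gsta4 was not called without control replicate 1 or 2 (adjusted p = 0.077 and 0.075, range 0.00073 to 0.077). Values of these transferase and reductase genes are uncertain, since their families hold similar copies. Akr1b8 and Gstm2 would not have passed the low-count filter without their conditioned libraries, and Gsta4 passed it through its controls only. Their places among the called genes are thus partly set by that filter.

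Of 12 tested genes in the list of NADPH sources 2 (16.7%) were called higher, 4 (33.3%) lower and 6 were not called. Among all genes tested 22.5% were called higher and 19.7% lower. The 4 called lower were Mthfd1, Pgls, Taldo1 and Tkt. Pgls, Taldo1 and Tkt belong to the pentose phosphate pathway but do not make NADPH themselves, so these shares do not describe NADPH producers alone. G6pdx, the entry enzyme of the pentose phosphate pathway and a frequent NRF2 target, had overlapping groups of 370.0 and 385 CPM against 251 to 424 CPM (log2 fold change -0.23 ± 0.23, edgeR adjusted p = 0.435). The next enzyme, Pgls, fell from 146 ± 2.05 to 61.1 ± 3.63 CPM (-1.26 ± 0.12, adjusted p = 0.0010). The folate enzyme gene Mthfd1 changed by -1.73 ± 0.37, and was not called without control replicate 1 or 2 (adjusted p = 0.064 and 0.080, range 0.00014 to 0.080). Beside Me1, the cytosolic isocitrate dehydrogenase gene Idh1 rose by 1.92 ± 0.33 and the folate enzyme gene Aldh1l1 by 4.23 ± 0.43. Idh1 lost its call without control replicate 1 or 2 (adjusted p = 0.058 and 0.057, range 4.6e-07 to 0.058). Catalase (Cat), which breaks down hydrogen peroxide in peroxisomes, rose from 81.7 ± 8.75 to 287 ± 99.1 CPM (1.81 ± 0.38, adjusted p = 0.012, but 0.079 and 0.091 without control replicate 1 and 2, range 3.2e-05 to 0.091), while cytosolic Sod1 fell from 230 ± 0.65 to 113 ± 6.76 CPM (-1.03 ± 0.12, adjusted p = 0.0018). Slc7a11 is also a target of the stress factor ATF4, whose part here was not tested. Other genes of the ATF4 response differed between the lines. Asns had log2 ratios to the controls of -3.40 under VpR126 and -1.10 under VpR99 medium. These ratios were -2.43 and -0.22 for Phgdh, and -1.71 and 0.68 for Slc7a5. Vldlr (3.27 and 0.95) and Ddit3 (-0.14 and -0.67) were higher under VpR126 medium instead, Vldlr at 8 to 125 counts in the conditioned libraries. Among the 12 genes listed for that response, every other one was lower under VpR126 than under VpR99 medium, Atf4 itself included (-0.97 and -0.18). Atf3 had 151 and 6.81 CPM in control replicates 1 and 2, so the controls differed as well. Of 12 genes of that response 1 was called higher (Atf5, 2.502 ± 0.40) and 1 lower (Ddit4, -1.002 ± 0.27), or 8.33% each way, below the share of all genes tested, and 10 were not called. Leaving out control replicate 1 ended both calls (Atf5, adjusted p = 0.052, range 6.1e-09 to 0.052, and Ddit4, 0.22, range 0.0037 to 0.22), nor Ddit4 without control replicate 2, VpR83 or VpR2020 (adjusted p = 0.060, 0.058 and 0.053).

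**Figure D5:**
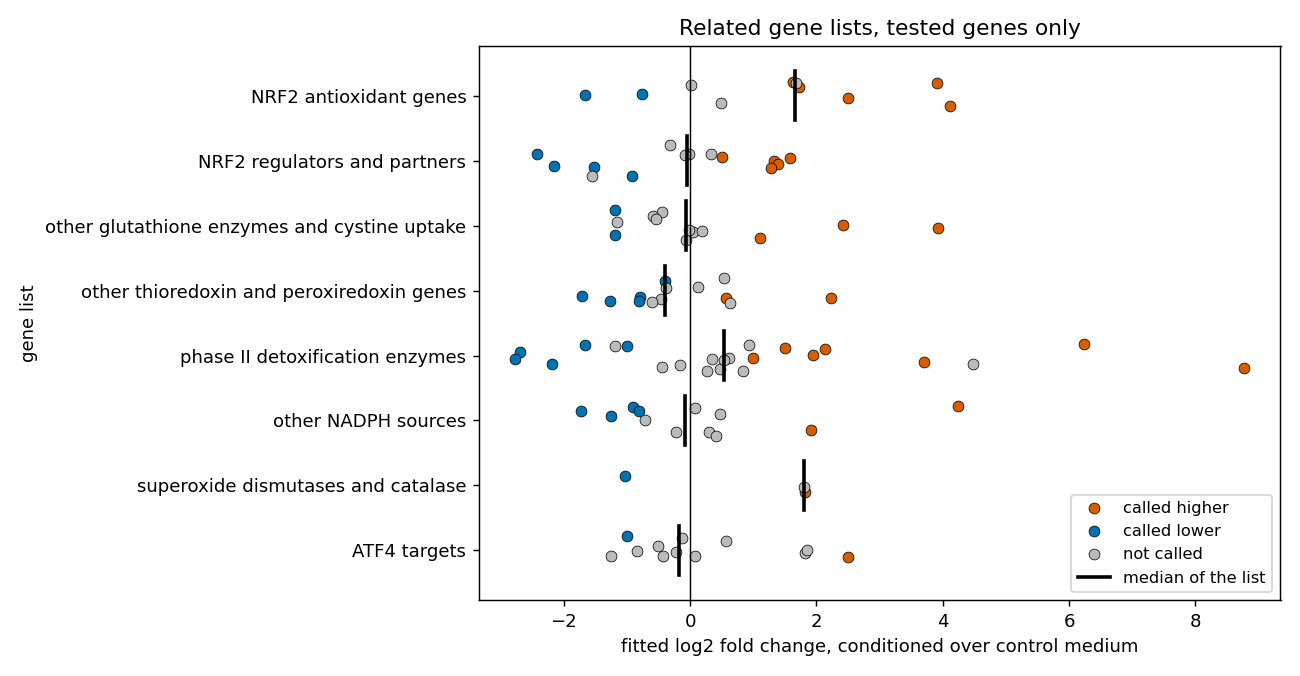
Fitted log2 fold changes (x axis) of the tested genes of 8 lists, one circle per gene coloured by call, with the list median as a black bar. Each list holds genes called higher and genes called lower, and the outermost gene, at 8.77, is Akr1b8, whose fitted value rests on 2 control counts.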

How the data were processed

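Bulk RNA-seq libraries of mouse marrow were made from total RNA with a stranded Illumina kit, per the labels' protocols. Per the submitters' processing notes, the tools included Trimmomatic 0.38 and STAR 2.5.2b, with the build GRCm38. Counting tool, strand setting and annotation release were not given in the sources used here. Each deposited value is a whole-number count of reads for an Ensembl gene, without normalization by the authors. Columns were mapped to samples by the line or control number in their names, and 45143 of 45706 identifiers matched GENCODE M21, which gave symbols, positions and exon lengths. Counts were fitted in R 4.3.3 with edgeR 4.0.16: filterByExpr at its defaults, TMM scaling, robust quasi-likelihood test of conditioned against control medium, two-sided, with Benjamini-Hochberg adjustment over 15141 genes and calls at an adjusted p below 0.05. The SE is the absolute log2 fold change over the square root of F. Log2 ratios per line used a prior count of 2. The chi-square per degree of freedom between libraries was lowest for the 2 controls (30.5), so no library repeated another. Counting intervals are exact and cover counting error only. The fit was tested on simulated data. Alternatives were other scalings (RLE, upper-quartile, library totals), no low-count filter, DESeq2 1.42.0, voom of limma 3.58.1, VpR99 thinned to 25718932 counts, and leaving out each library. The members and gene lists were chosen with earlier results of these data known. Genes named by rule were all members, 9 preset pathway genes, and the 2 called genes of each list with the largest change in each direction. Pathway genes named outside this rule were Taldo1, Tkt, Atf4, Asns, Phgdh, Slc7a5, Vldlr, Ddit3 and Atf3.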

Additional observations from a re-analysis of the deposited data

Results flagged for a closer look

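Gclm under VpR99 medium, at 158.6 CPM, stood apart from the other 3 conditioned libraries, which had 87.3 to 90.8 CPM: the gap to its nearest neighbour was 0.951 of the range of the group, above the 95% critical value of Dixon's test for 4 libraries. The 4 conditioned libraries were checked in this way for each of the 10 genes, and chance gives such a gap in about 1 of 20 groups.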

How the results depend on the processing

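The fitted log2 fold changes of Srxn1, Prdx1, Txnrd1, Me1 and Gsr kept their direction and their call in all 13 alternatives. Leaving out 1 library moved the counts most: 1282 to 3656 genes were called higher and 918 to 3374 lower, 4 to 6 members higher and 1 to 2 lower, and 12 to 25 related genes higher and 7 to 24 lower, the lowest counts coming without a control. The median of the members was 1.46 to 1.71 without 1 library. With library totals as the scaling the median over all genes tested was -0.26 log2 units in place of -0.01, and 2625 genes were called higher and 4168 lower in place of 3409 and 2982 (upper-quartile: -0.22, 2737 and 4098), while 5 members were still called higher and 2 lower. Nqo1 changed sign under RLE scaling (-0.0001), upper-quartile scaling (-0.19), library totals (-0.22) and with VpR99 thinned (-0.0404), and ranged from -0.24 to 0.15 when single libraries were left out. The cause was not tested. No paired analysis was possible because the labels number the controls only. With 9 control counts, depth limits the fold of Me1, and a count of 0 allows up to 0.166 CPM (3 counts in VpR2020, on the TMM scale).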

Other observations

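For 3 members the tested genes outside the list with the most similar profile over the 6 libraries were sought, by the root mean square distance between centred log2 CPM. Nearest to Nfe2l2 were Ids, a lysosomal sulfatase gene (0.0787 log2 units), Ticam2, an adaptor gene of Toll-like receptor signalling (0.0803), and Cd2ap, a cytoskeletal adaptor gene (0.103). Ids had 23.6 and 24.3 CPM in the controls and 74.0, 50.9, 94.2 and 75.3 CPM under VpR83, VpR99, VpR126 and VpR2020 medium, with the lowest conditioned value in VpR99 and the highest in VpR126, as for Nfe2l2. Nearest to Nqo1 were Igf1r, the receptor gene of insulin-like growth factor 1 (0.0879), C1galt1c1 (0.108) and Mttp (0.125). Igf1r had 26.6 and 24.3 CPM in the controls and 17.8, 33.6, 19.1 and 22.1 CPM under the 4 media in the same order, again with VpR99 alone above the controls. Nearest to Slc7a11 were Tnfsf4 (0.111), Gm8995 (0.181) and Klrg2 (0.223). Tnfsf4 and Klrg2 lay at or under 1.27 CPM in every library, where the prior count narrows differences, but Gm8995 had 114 and 92.1 CPM in the controls and 148, 384, 436 and 120 CPM under VpR83, VpR99, VpR126 and VpR2020 medium. These genes were picked from 15141 for likeness, so their resemblance is a description.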
